A study of Mus musculus with 17 samples.

Results

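A set of 10 genes with a role in meiosis or the germline were followed through 17 primary tumors of TH-MYCN mice, namely Rec114, Nxf3, Sycp1, Sycp2, Sycp3, Stag3, Dmc1, Spo11, Smc1b and Hormad1. They are 10 of 18193 genes measured on the arrays, and 12 of 34945 probe sets that carry a single gene symbol are theirs. A probe set was taken as a member's when its annotation named that gene alone, under its present symbol or an older one, and the probe set with the highest mean log2 value over the tumors stood for the gene. The genes were selected on their measured log2 values in these same tumors, whose levels and spreads were known, so levels and spreads are given below as a description, with no test.

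TH-MYCN mice carry a human MYCN transgene under the rat tyrosine hydroxylase promoter, which is active in cells of neural crest origin, and they develop neuroblastoma, a tumor of the sympathetic nervous system. The tumors were abdominal tumors of hemizygous mice kept on an inbred background, collected in the first months of life, and each tumor gave RNA for a separate Affymetrix array. All 17 form a single group with the same genotype and no control tissue, and the labels give no sex or age for a tumor, so nothing below compares conditions. Tumors are called by the submitters' numbers, mad548 to mad565.

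In meiosis the homologous chromosomes are cut on purpose by Spo11, the breaks are repaired from the partner chromosome by recombinases such as Dmc1, and the partners are held side by side by the synaptonemal complex, which is built of Sycp1, Sycp2, Sycp3 and other proteins. Sister chromatids are held together meanwhile by cohesin rings with meiotic subunits, among them Smc1b and Stag3. Most of these genes are kept silent outside the gonads by DNA methylation and by repressor complexes that contain E2f6, Pcgf6 and Max, and some are switched on in tumors, where their products are known as cancer-testis antigens.

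The members did not behave as 1 unit in the tumors. On the log2 scale Rec114 and Nxf3 had mean values above 9, Stag3 had 8.57, Smc1b had 6.30, and the other 6 members had means between 3.80 and 4.66. Each array was divided into quartiles of its single-gene probe sets, whose limits lay between 4.92 and 5.13 for the lowest quartile, between 6.69 and 6.89 for the median and between 8.93 and 9.10 for the highest quartile. By this measure 1 member, Rec114, was in the highest quartile of all 17 arrays, against 28.2% of all genes, and 6 members were in the lowest quartile of all 17 arrays, against 14% of all genes. Nxf3, Stag3 and Smc1b moved between quartiles from tumor to tumor. The signal of a probe set depends on how well it hybridizes as well as on the amount of RNA, so a quartile places a probe set on its array and does not order the RNA of different genes.

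**Figure D1:**
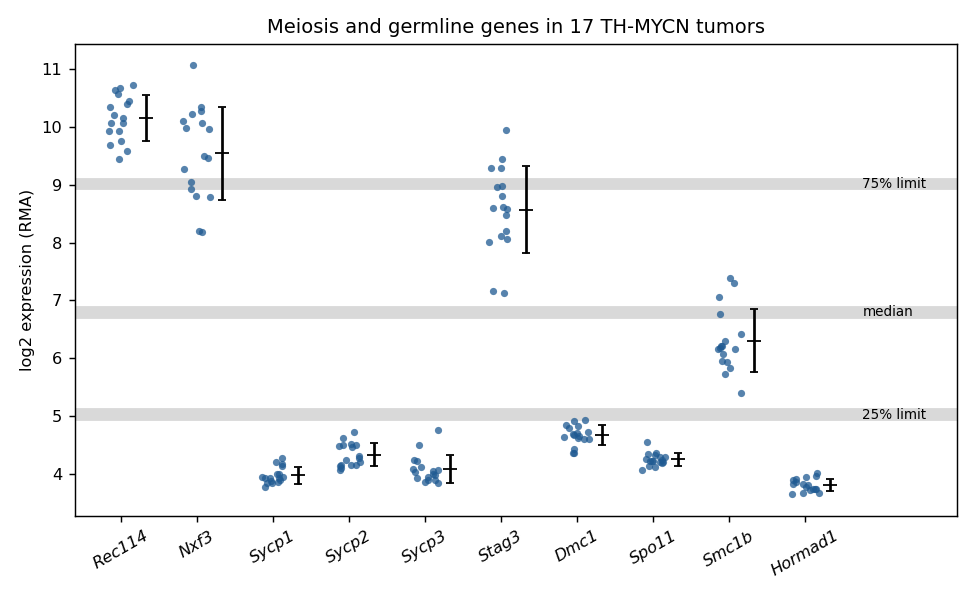
Log2 expression (RMA, vertical axis) of the 10 members, 1 point for each of the 17 tumors, with the mean and SD as a black bar beside the points. Grey bands show the range over arrays of the lower quartile limit, the median and the upper quartile limit of single-gene probe sets; Rec114 lies above the upper band in every tumor and Sycp1, Sycp2, Sycp3, Dmc1, Spo11 and Hormad1 lie below the lower band.

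The arrays themselves were alike in level, with medians over single-gene probe sets between 6.69 and 6.89. Of 14 measured genes of the sympathoadrenal lineage, 13 were in the highest quartile of every tumor, as were 18 of 19 proliferation genes. The share over all genes was 28.2%. The samples were pieces of whole tumor, and a smaller number of cells of a type and less RNA per cell cannot be told apart. A list of 10 skeletal muscle genes had its highest means in mad553 (12.61), mad550 (10.76) and mad549 (10.08), and the other tumors lay between 5.73 and 6.66. A list of 7 liver genes averaged 9.98 in mad562 and 7.20 in mad559, and 5.20 to 5.74 elsewhere, and macrophage genes were also highest in mad562, at 10.55.

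Rec114 forms, with Mei4 and Iho1, assemblies on the chromosome axis that Spo11 needs in order to cut. Its lowest value was 9.45 in mad561, its median 10.15 and its highest 10.73 in mad564, with a mean of 10.16 ± 0.40 (SD, n = 17). Rec114 was thus at a high signal in all tumors, and the range from the lowest to the highest tumor was 2.42-fold. Its SD was larger than that of 93.0% of the genes whose mean lay within 0.5 log2 units of its own, for which the median SD was 0.19. A second probe set of Rec114 gave the same picture, with values from 9.35 to 10.39, an r of 0.93 with the main one over the 17 tumors and differences between -0.13 and 0.43. Rec114 lies within a region that also holds the protein-coding gene Nptn, in the RefSeq annotation. Nptn averaged 10.37 ± 0.19 and did not follow Rec114 over the tumors (r = 0.06, permutation p = 0.8210, adjusted p = 0.8620 over 5 such pairs of overlapping genes, rho = 0.04, permutation p = 0.8680, adjusted p = 0.8680, and r = 0.20 when the 2 tumors with the most extreme Rec114 were dropped).

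The promoter of Rec114 is shown because its letters can be set beside those of members that were low or variable. It runs from 250 bases before to 50 bases after the annotated start, at chr9:58741510-58741809 on the minus strand of GRCm38.p6, from RefSeq. Capitals mark the E-box CACGTG, the sequence that MYC and MAX and several other factors bind, and the letters TCCCGC on either strand, the core of an E2F site. Both motifs were chosen after some of these sequences had been seen.
Rec114: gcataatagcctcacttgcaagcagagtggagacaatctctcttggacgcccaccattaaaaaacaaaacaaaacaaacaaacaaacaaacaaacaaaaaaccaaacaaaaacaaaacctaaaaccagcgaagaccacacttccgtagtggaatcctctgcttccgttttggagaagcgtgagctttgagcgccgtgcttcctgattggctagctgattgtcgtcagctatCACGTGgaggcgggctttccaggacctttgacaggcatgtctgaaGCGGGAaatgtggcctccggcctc
The E-box of Rec114 begins at position -19, where 1 is the annotated start, and the E2F core begins at position 27. A match of this kind is a description of the letters and not evidence of binding.

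Of the other members of the break-forming machinery, Spo11 and Hormad1 had probe sets near the bottom of the arrays. Spo11, the enzyme that makes the break, had a lowest value of 4.06, a median of 4.22 and a highest value of 4.55. Hormad1, a HORMA-domain protein of the chromosome axis that promotes break formation, had 3.64, 3.80 and 4.02. Both were in the lowest quartile in all 17 tumors, and their SDs of 0.11 each were larger than those of only 10.2% and 15.6% of genes with a similar mean. Spo11 was highest in mad558 at 4.55 and next in mad561 at 4.36. Differences of this size close to the lowest signal of an array carry little information. Of 7 other measured genes of break formation, 2 were likewise in the lowest quartile of every tumor, against 14% of all genes. They were Mei4 (mean 4.18 ± 0.26) and Ankrd31 (4.06 ± 0.11), both partners of Rec114. Hormad2, the relative of Hormad1, had a mean of 4.93 ± 0.12. Trip13, the ATPase that removes HORMA proteins from chromosomes and also acts in the mitotic spindle checkpoint, had a mean of 12.14 ± 0.15, with 2 other probe sets at 9.35 and 5.56, and Hells, a chromatin remodeller of dividing cells that works with Prdm9 in meiosis, had 10.26 ± 0.18. Those 2 of the 7 genes were in the highest quartile of every tumor, against 28.2% of all genes, a count near that share and no result about these genes. Rec114 was at a high signal, and Spo11, Hormad1, Mei4 and Ankrd31 were at low signals.

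The promoter of Hormad1, at chr3:95559427-95559726 on the plus strand of GRCm38.p6, is shown as that of a member at a low signal in every tumor.
Hormad1: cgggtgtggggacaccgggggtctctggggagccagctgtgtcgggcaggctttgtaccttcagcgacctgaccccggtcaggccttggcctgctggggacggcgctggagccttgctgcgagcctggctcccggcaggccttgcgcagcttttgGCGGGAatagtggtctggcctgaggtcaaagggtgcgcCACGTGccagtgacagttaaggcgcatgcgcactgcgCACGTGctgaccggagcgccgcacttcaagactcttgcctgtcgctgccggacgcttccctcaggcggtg
It holds the E-box at positions -57 and -20 and the E2F core at position -95, so both kinds of motif found in Rec114 also stand in a gene with a low signal.

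Dmc1, the recombinase that in meiosis pairs a broken end with the homologous chromosome, had a lowest value of 4.35, a median of 4.67 and a highest of 4.93, and was in the lowest quartile of every tumor. Its second probe set ran from 3.97 to 4.49, below the main one in all 17 tumors, with an r of only 0.40 between them. Genes of strand exchange and crossover formation around Dmc1 were mixed. Of 15 measured, 4 were in the lowest quartile of every tumor (Meiob and Tex11, and, named after their values were seen, Msh4 and Majin) and 2 in the highest (Psmc3ip and Cntd1). Psmc3ip, the partner of Mnd1 in loading Dmc1, had a mean of 10.60 ± 0.16, and its gene overlaps Mlx in the annotation. The probe set of Cntd1 had a mean of 13.02, whereas 2 other probe sets of Cntd1 had means of 5.20 and 7.21, and Cntd1 overlaps Becn1, so its place is uncertain. Of 13 measured homologous recombination genes used by dividing cells, 5 were in the highest quartile of every tumor, against 28.2% of all genes, and none in the lowest, against 14%. The difference between these lists was not tested. Among the 5 were Rad54l at 10.67 ± 0.15 and Blm at 10.42 ± 0.19, and Rad51b had the lowest mean and the largest SD of the list, 6.39 ± 0.30.

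Among crossover genes, Ccnb1ip1 (also known as Hei10, a protein that marks crossover sites) varied more than any member, over a 37.9-fold range. It ran from 5.12 in mad563 through a median of 7.29 to 10.36 in mad549, and mad560 had 10.25. The next was mad559 at 8.50, so 2 tumors stood apart by a gap of 1.75 log2 units. Tex15, which acts in germ cell DNA repair and silencing of transposons, ran from 7.10 in mad562 to 8.99 in mad551, with a median of 7.84 and without such a gap.

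The members of the synaptonemal complex, Sycp1, Sycp2 and Sycp3, were low in every tumor, whereas other genes of the complex were mixed. Sycp1, the transverse filament that bridges the paired axes, had a lowest value of 3.77, a median of 3.93 and a highest of 4.27. Sycp2, a protein of the lateral element, had 4.07, 4.26 and 4.71, and Sycp3, its partner in the lateral element, had 3.83, 4.03 and 4.75. All 3 genes stayed in the lowest quartile in the 17 tumors. Sycp3 was highest in mad548 at 4.75 and next in mad562 at 4.49, whereas the other 15 tumors lay between 3.83 and 4.23. Of 6 other measured genes of the complex, 2 were also in the lowest quartile everywhere, against 14% of all genes, and 1 was in the highest everywhere, against 28.2%. These shares were not tested. The 2 low genes were Tex12 (4.31 ± 0.16) and Sycp2l (4.16 ± 0.18), a relative of Sycp2. The high gene was Syce2, of the central element, at 11.69 ± 0.16, and its gene overlaps Gcdh. Syce1, also of the central element, was the variable one, with values from 4.46 in mad558 through a median of 5.73 to 8.32 in mad548, and 5 tumors in the lowest quartile.

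The promoter of Sycp3, at chr10:88459337-88459636 on the plus strand of GRCm38.p6, is the second shown for a member that stayed low.
Sycp3: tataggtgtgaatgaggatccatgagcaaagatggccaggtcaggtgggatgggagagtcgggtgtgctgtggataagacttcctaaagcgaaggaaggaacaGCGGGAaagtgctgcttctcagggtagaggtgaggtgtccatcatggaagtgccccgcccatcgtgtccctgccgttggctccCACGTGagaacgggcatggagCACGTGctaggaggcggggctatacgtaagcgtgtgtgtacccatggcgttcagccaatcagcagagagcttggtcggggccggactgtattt
The E-box stands at positions -64 and -43 and the E2F core at position -147.

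Stag3 and Smc1b, the meiotic cohesin subunits, were the members with the largest SDs over the tumors beside Nxf3. Stag3, which replaces Stag1 or Stag2 in meiotic cohesin, had a lowest value of 7.13 in mad555, a median of 8.61 and a highest value of 9.94 in mad553, with a mean of 8.57 ± 0.75 (SD, n = 17). It was in the highest quartile in 5 tumors and in the quartile below in 12, and the extremes differed 7.03-fold. Its SD exceeded that of 97.2% of genes with a similar mean, whose median SD was 0.23. Only mad555 and mad561 (7.16) lay below 8. Smc1b, the meiotic counterpart of Smc1a, had a lowest value of 5.39 in mad556, a median of 6.18 and a highest of 7.38 in mad563, with a mean of 6.30 ± 0.55. It was above the array median in 4 tumors and below it in 13, and the extremes differed 3.98-fold. The SD of Smc1b exceeded that of 89.1% of genes with a similar mean, a smaller share than the 93.0% of Rec114. By the median absolute deviation, scaled like an SD, Smc1b had 0.35 and Rec114 had 0.45, so the larger SD of Smc1b came with a few high tumors. The 4 high tumors were mad563, mad553 (7.31), mad565 (7.06) and mad559 (6.77), and the others were at or below 6.41, in mad564.

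The SDs of 3 members, Nxf3, Stag3 and Smc1b, were 0.5 or more, against 6.79% of all genes, a limit set after the values had been seen. The mitotic cohesin genes were steady beside them. All 10 were in the highest quartile of every tumor, against 28.2% of all genes. Smc1a had 11.66 ± 0.14, Stag1 10.06 ± 0.13 and Stag2 11.52 ± 0.07. Of 3 other meiotic cohesin and centromere genes, Sgo2a, which protects centromeric cohesin, had 10.57 ± 0.15, and Meikin, a meiotic kinetochore protein, had 4.70 ± 0.20. Rec8, the meiotic kleisin that closes the ring, ran from 5.26 in mad565 through a median of 5.58 to 7.19 in mad564. Its high tumor was not among the 4 that were high in Smc1b, although mad564 was the next after them in Smc1b.

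The promoters of both genes are shown because they had the highest r of the 45 member pairs over the tumors. No pair passed the permutation test of r after adjustment. That of Stag3 lies at chr5:138280259-138280558 on the plus strand and that of Smc1b at chr15:85131908-85132207 on the minus strand of GRCm38.p6.
Stag3: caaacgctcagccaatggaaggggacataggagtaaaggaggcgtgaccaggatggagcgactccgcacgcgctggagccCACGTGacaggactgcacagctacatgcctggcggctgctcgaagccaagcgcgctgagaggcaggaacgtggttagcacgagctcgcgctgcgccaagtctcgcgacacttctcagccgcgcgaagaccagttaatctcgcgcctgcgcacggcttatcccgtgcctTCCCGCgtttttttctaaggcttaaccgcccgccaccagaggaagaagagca
Smc1b: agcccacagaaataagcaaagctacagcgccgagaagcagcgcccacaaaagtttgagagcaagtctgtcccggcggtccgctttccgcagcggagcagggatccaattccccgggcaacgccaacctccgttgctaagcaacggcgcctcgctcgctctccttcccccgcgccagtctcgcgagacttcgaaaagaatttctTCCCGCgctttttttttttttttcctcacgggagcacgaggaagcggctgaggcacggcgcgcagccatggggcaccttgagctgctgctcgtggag
Stag3 holds the E-box at position -170 and the E2F core at position -2, whereas Smc1b holds the E2F core at position -47 and no E-box in this window. Of the 10 members, 8 had an entry in the promoter table, all but Nxf3 and Spo11. The E-box stood in 5 of these 8, or 62.5%, against 7.17% of 32544 mouse promoters of the same length. The E2F core stood in 7, or 87.5%, against 20.1%, and both together in 5, or 62.5%, against 2.01%. Members at low and at high signals carried them, and only Sycp2 had neither. Because the motifs were chosen after some of these sequences had been seen, the shares are a description and were not tested.

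Nxf3 is an X-linked relative of Nxf1, the receptor that carries most mRNA out of the nucleus. It had a lowest value of 8.19 in mad549, a median of 9.50 and a highest value of 11.07 in mad562, with a mean of 9.54 ± 0.81 (SD, n = 17). The mad556 tumor, at 8.20, was as low as mad549, and the extremes differed 7.35-fold. Nxf3 was in the highest quartile in 13 tumors and in the quartile below in 4, and its SD exceeded that of 99.2% of genes with a similar mean. The highest tumor was also the one with the most liver and macrophage signal, and their part in the level of Nxf3 was not tested. Without mad562 the SD was 0.73. Its relatives did not share this spread. Nxf1 had 11.26 ± 0.13, Nxf2 had 4.76 ± 0.16, Nxf7 had 4.17 ± 0.13 and the cofactor Nxt1 had 10.29 ± 0.16. Nxf3 had only 1 probe set, and its region also holds the protein-coding gene Bex4 in the annotation. Bex4 averaged 11.31 ± 0.15 and had r = -0.05 with Nxf3 (permutation p = 0.8620, adjusted p = 0.8620, rho = -0.1250, permutation p = 0.6305, adjusted p = 0.7882, r = 0.23 without mad549 and mad562). This pair was also chosen after the data had been seen.

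**Figure D2:**
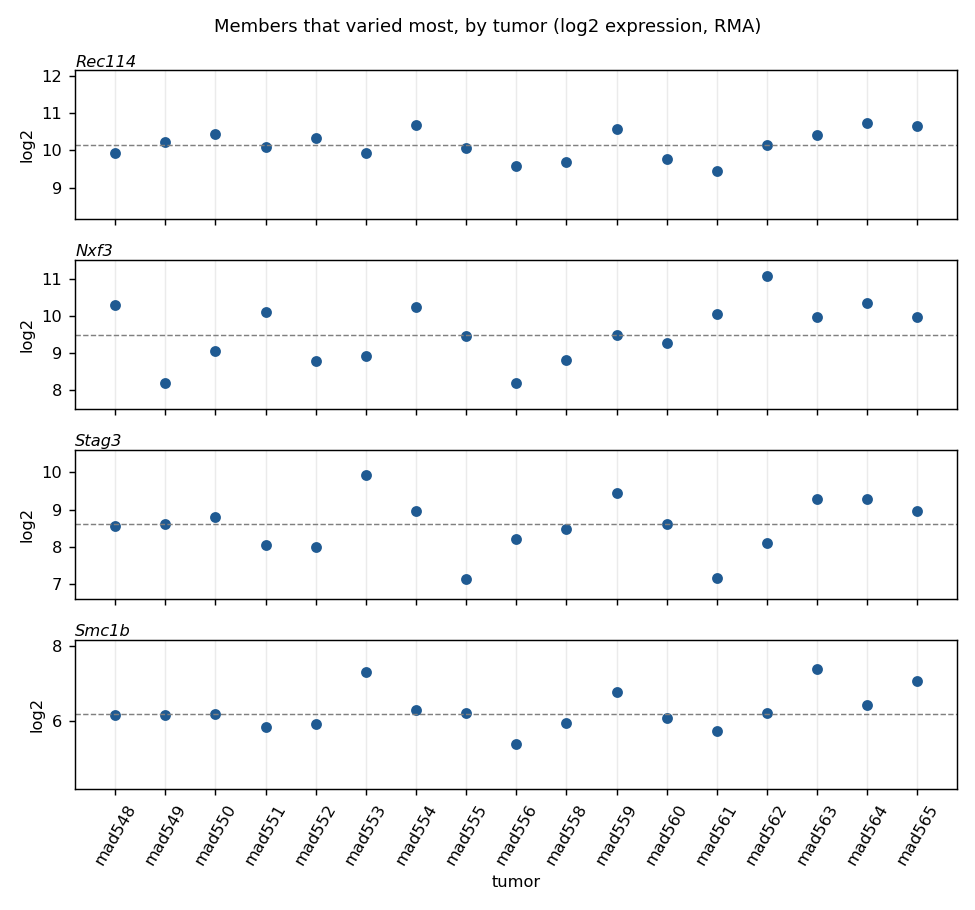
Log2 expression (RMA, vertical axes, each spanning 4 units) of Rec114, Nxf3, Stag3 and Smc1b in each of the 17 tumors (horizontal axis); the dashed line is the gene's median. Stag3 and Smc1b are both high in mad553, mad559 and mad563, and Nxf3 is highest in mad562.

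Members were then compared over the 17 tumors, pair by pair, to ask which varied together. Of 45 pairs, none passed after Benjamini-Hochberg adjustment of the permutation test of r, and 4, all positive, had an unadjusted p under 0.05, against 7.16% of all gene pairs with a positive r past the same limit. The count of 4 in 45 is near that background and is no result about the members. The closest pair was Stag3 and Smc1b, with r = 0.72 (two-sided permutation test, p = 0.0012, adjusted p = 0.0558). By ranks the pair passed, with rho = 0.75 (permutation p = 0.00075, adjusted p = 0.0337), and r was 0.82 without mad555 and mad561, the tumors farthest from the median of Stag3. Smc1b was the 9th of 18192 genes in the order of r with Stag3, and Stag3 was the 28th in the order of r with Smc1b.

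The tumor with the highest Stag3, mad553, was also the one with the most muscle signal and the lowest mean of proliferation genes, 11.42, and it was high in Smc1b. Without mad553 the r of Stag3 and Smc1b was 0.63, and without the 3 tumors with muscle signal it was 0.65 (permutation test, adjusted p = 0.2016). Both cohesin genes overlap others in the annotation. Stag3 had r = 0.38 with Gpc2 (permutation p = 0.1280, adjusted p = 0.2134, rho = 0.28, permutation p = 0.2724, adjusted p = 0.5921, r = 0.38 without the 2 farthest tumors). Smc1b had r = 0.40 with Fam118a (permutation p = 0.1099, adjusted p = 0.2134, rho = 0.31, permutation p = 0.2282, adjusted p = 0.5921, r = 0.12 without the 2 farthest tumors). These overlapping pairs were chosen after the data had been seen, and neither passed the test.

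Rec114 had positive r with both cohesin genes, and neither relation passed after adjustment. With Smc1b its r was 0.52 (permutation p = 0.0327, adjusted p = 0.4565), its rho 0.63 (permutation p = 0.0077, adjusted p = 0.1744) and its r without mad561 and mad564 0.49. With Stag3 its r was 0.50 (permutation p = 0.0393, adjusted p = 0.4565), its rho 0.53 (permutation p = 0.0321, adjusted p = 0.4809) and its r without the same tumors 0.30. Leaving out single tumors moved the r of Rec114 and Stag3 both ways, from 0.36 without mad561 to 0.66 without mad553. Sycp3 and Dmc1 had r = 0.50 (permutation p = 0.0406, adjusted p = 0.4565) and rho = 0.47 (permutation p = 0.0584, adjusted p = 0.6574). Without mad548 and mad562 the r was 0.14, and both genes were near the lowest signal of the arrays. Nxf3 and Stag3, the members with the largest SDs, had r = -0.03 (permutation p = 0.8994, adjusted p = 0.9412), rho = 0.07 (permutation p = 0.8024, adjusted p = 0.9984) and r = 0.06 without mad549 and mad562.

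**Figure D3:**
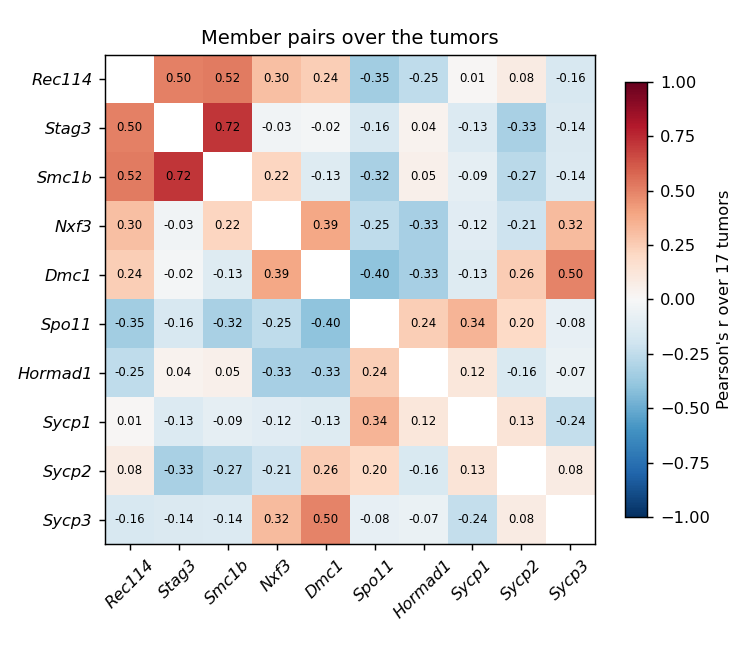
Pearson's r over the 17 tumors for each of the 45 pairs of members (rows and columns, colour scale from -1 to 1, value printed in each cell). The cells of Stag3, Smc1b and Rec114 among themselves hold 0.72, 0.52 and 0.50, and the median of the 45 values is -0.07.

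Levels were also set beside the mean of 4 gene lists in the same tumors, for proliferation, sympathoadrenal, macrophage and fibroblast genes. None of the 40 relations passed after adjustment, and 4 had an unadjusted p under 0.05, against 13% of all gene and list relations of either sign, so the members were not above the background. Nxf3 had r = 0.50 with the macrophage list (permutation p = 0.0390, adjusted p = 0.3899), rho = 0.50 (permutation p = 0.0430, adjusted p = 0.4296) and r = 0.42 without mad550 and mad562. Without mad562 alone its r was 0.30. Sycp1 had r = -0.57 with the same list (permutation p = 0.0161, adjusted p = 0.2872), rho = -0.55 (permutation p = 0.0240, adjusted p = 0.4296) and r = -0.65 without those tumors. Sycp3 had r = 0.57 with it (permutation p = 0.0183, adjusted p = 0.2872), rho = 0.45 (permutation p = 0.0677, adjusted p = 0.5414) and r = 0.59 without them. Hormad1 had r = 0.56 with the sympathoadrenal list (permutation p = 0.0215, adjusted p = 0.2872), rho = 0.50 (permutation p = 0.0411, adjusted p = 0.4296) and r = 0.24 without mad554 and mad560. Of these 4 relations, 3 concern genes whose whole range over tumors lay within 1 log2 unit at the bottom of the arrays.

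The genes most like each well-measured member were then listed among 10478 others in the upper part of the arrays, by r over the 17 tumors and with no test, since they were picked for their r. For Nxf3 the nearest was Trp53inp1, a gene induced by p53 in stress, at r = 0.90, and it kept 0.86 without mad562 and 0.82 without mad549 and mad562. Trp53inp1 ran from 7.97 in mad549 to 9.69 in mad562, the same lowest and highest tumors as Nxf3. The next were P2ry14 (0.78), Ephx1 (0.77), Stab2 (0.77) and Crebrf (0.77), with 0.71, 0.71, 0.63 and 0.61 without mad549 and mad562. The most opposed were Fancb (-0.73), of the Fanconi anaemia repair complex, and Tada2a (-0.71), with -0.57 and -0.54 without those tumors. For Rec114 the nearest were Epha7, an ephrin receptor of neural development, at 0.82, and Adcyap1, which encodes the neuropeptide PACAP, at 0.81, followed by Stx2 (0.74), Bphl (0.71) and Zfp961 (0.69). Without mad561 and mad564 these 5 had 0.80, 0.80, 0.64, 0.61 and 0.54. B130055M24Rik (-0.70) and Dach2 (-0.67) were the most opposed to Rec114, with -0.66 and -0.61 without those tumors. For Stag3 the nearest was Sap30bp at 0.75, followed by Sdhaf1 (0.73), Smcr8 (0.72), Sar1b (0.72) and Tor2a (0.72). Without mad555 and mad561 these fell to 0.58, 0.55, 0.66, 0.65 and 0.40. Ero1b, an oxidase of the endoplasmic reticulum (-0.83), and Zfp281, a zinc finger transcription factor (-0.81), were more strongly opposed to Stag3 than any of the genes ranked was alike. Without the same tumors Ero1b had -0.76 and Zfp281 -0.71.

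**Figure D4:**
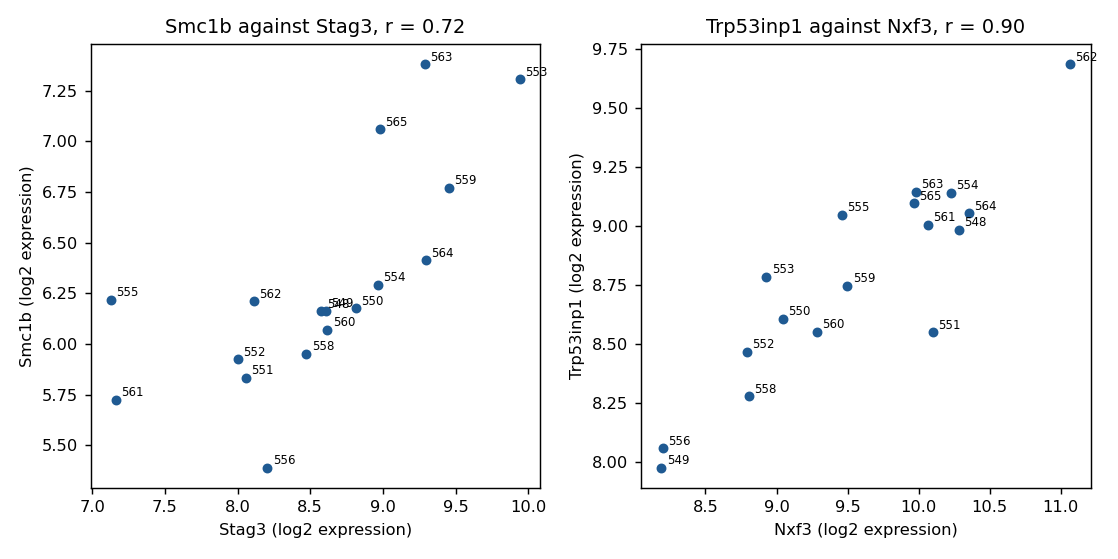
Left, log2 expression of Smc1b (vertical) against Stag3 (horizontal); right, Trp53inp1 (vertical) against Nxf3 (horizontal); 1 point for each of the 17 tumors, labelled by the digits of its number. The r values are 0.72 and 0.90, and the second pair has the same lowest tumor, mad549, and the same highest tumor, mad562.

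Other genes of the meiotic and germ cell programme were measured from lists drawn up around the members. Of 31 other meiosis genes, 6, or 19.4%, were in the highest quartile of every tumor, against 28.2% of all genes. In the lowest were 8, or 25.8%, against 14% of all genes. Their median SD was 0.17, against 0.19 for all genes. Genes that mark germ cells were mostly low, with a median of their means of 4.93, against 7.54 for all genes. Of 24 germ cell identity genes none was in the highest quartile of every tumor and 9 were in the lowest, among them Mael (3.68 ± 0.10) and Meioc (3.73 ± 0.15), which act in transposon silencing and in meiotic prophase, and, named after their values were seen, Ddx4 (3.92 ± 0.15) and Dazl (4.26 ± 0.17), the RNA-binding proteins by which germ cells are recognised. The highest of the list was Ythdc2, a widely expressed RNA helicase needed for meiosis, at 9.34 ± 0.15. Of 10 spermatid genes 4, and of 9 oocyte genes 4, were in the lowest quartile everywhere and none in the highest. Of all genes, 14% were in the lowest quartile of every tumor and 28.2% in the highest. The probe set standing for Prm1, the sperm protamine, had a mean of 7.12, and its 2 other probe sets had 3.73 and 3.72.

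Some germline genes were nonetheless high in a few tumors, and those named here were picked for their large SDs. Of 51 germ cell, spermatid, oocyte and somatic gonad genes, 4, or 7.84%, had an SD of 0.5 or more. Of 31 other meiosis genes, 3, or 9.68%, did so, against 6.79% of all genes. Both shares are near that background and are no result about these genes as a set. The highest tumors differed from gene to gene, although mad554 was the highest in Tex19.1 and Rhox5 and the next in Tex101. Tex19.1, which restrains retrotransposons in germ cells, ran from 5.28 in mad549 through a median of 6.51 to 9.51 in mad554, with 9.42 in mad565 and 8.90 in mad558, and no other tumor exceeded 7.81. Tex101, a surface protein of germ cells, ran from 5.22 in mad549 through a median of 6.24 to 9.61 in mad564, with 7.99 in mad554 next. Tex14, a protein of the bridges between germ cells and named after its values were seen, had 8.07 in mad559, 7.69 in mad562 and 7.25 in mad563, against a median of 5.82. The liver list was also high in mad559 and mad562, with means of 7.20 and 9.98. In mad563 its mean was 5.74, close to the 5.66 of mad554 and not apart from the other tumors. The part of liver RNA in the level of Tex14 was not tested. Rhox5, a homeobox gene of Sertoli cells, ran from 6.85 in mad558 through a median of 8.06 to 9.49 in mad554. Tex19.1 and Rhox5 were thus highest in mad554, whereas Tex101, Rec8 and Rec114 were highest in mad564. Tex14 was highest in mad559, Ccnb1ip1 in mad549, Syce1 in mad548 and Stag3 in mad553. By list means, mad554 was highest for the members (6.17) and for germ cell identity (5.55), spermatid (5.35), oocyte (5.11) and somatic gonad genes (6.69). The lists of other meiosis genes were highest in mad563, mad549, mad564 and mad548. The lower quartile limit was also highest in mad554, at 5.13. These list means were not tested.

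Genes known to hold germline genes silent were measured as well. Of 17, 13 were in the highest quartile of every tumor, against 28.2% of all genes, and none in the lowest, against 14%. Trim28 had 13.29 ± 0.11 and Dnmt1, the maintenance DNA methyltransferase, 12.11 ± 0.15. Of the complex named above, Pcgf6 had 11.05 ± 0.11 and E2f6 had 10.45 ± 0.12, both named after their values were seen. Max, the common partner in it and of MYCN, had 7.41 ± 0.42, the lowest mean and the largest SD of the list.

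**Figure D5:**
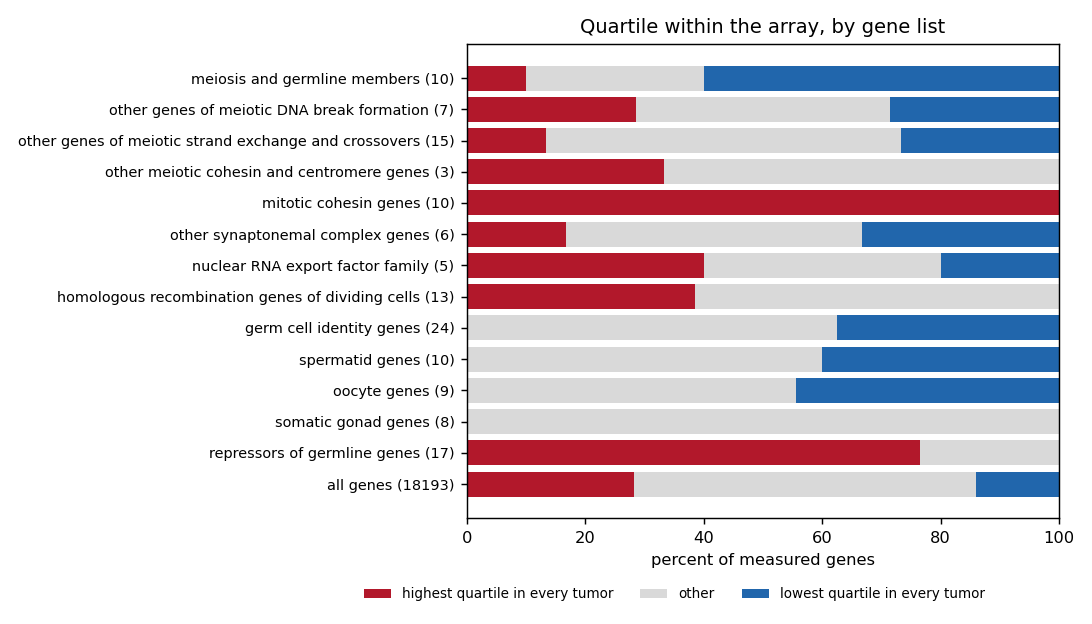
Percent of the measured genes of each list (number in brackets) that lay in the highest quartile of single-gene probe sets in all 17 tumors (red), in the lowest quartile in all tumors (blue), or neither (grey). The members, at the top, are 10% red and 60% blue, and all 18193 genes, at the bottom, are 28.2% red and 14% blue.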

How the data were processed

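RNA of 17 TH-MYCN tumors had been extracted with Trizol, labelled by the Affymetrix 2-cycle protocol and hybridized to 1 array each. The deposited values are log2 expression values per probe set, which the authors computed by RMA, a method that corrects background, quantile-normalizes probes over arrays and summarises them. The labels' processing notes also list Partek 6.4. The study names RMA for these arrays in its results and MAS5 signals in its methods, and values between 3.28 and 15.59 fit a log2 scale. Quantile normalization gives all arrays nearly the same distribution, so a shift shared by most genes would not be seen, and low signals are compressed near the floor.

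Probe sets were named from GEO's platform annotation, with symbols updated through a RefSeq gene table. Of 45101 probe sets, 64 were array controls, 34945 had 1 symbol, 932 several and 9160 none here, which gave 18193 genes. Lists of related genes came from general knowledge. The members and lists were chosen with earlier results of these data known. Genes named from a list are among those with its highest or lowest means or largest SDs, or direct relatives of members, except where the text says otherwise. Relations over tumors were tested by permutation (100000 draws, seed 1, two-sided) of Pearson's r and Spearman's rho, with Benjamini-Hochberg adjustment over 45 pairs or 40 relations and a threshold of 0.05. Nothing says whether tumors shared litters, and tests measure the spread between these 17 tumors. The steps were tested on simulated data. Raw intensities and human arrays were not analysed here. Alternatives covered probe set choice, quartile limits, centring, rank correlation, and leaving out tumors or the first principal component. Computations ran in Python 3.11.15 with pandas 2.3.3, SciPy 1.17.1 and NumPy 2.4.6, and plots in Matplotlib 3.10.9. Promoter sequences came from RefSeq (GRCm38.p6).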

Additional observations from a re-analysis of the deposited data

How the results depend on the processing

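The relation of Stag3 and Smc1b sat at the threshold. The number of member pairs that passed was 0, and it was 1, this pair, with arrays centred on their median (r = 0.72, permutation test, adjusted p = 0.0459) and with Spearman's rho (0.75, permutation test, adjusted p = 0.0337). Leaving out each tumor in turn gave 0 to 1 passing pairs and an r from 0.63, without mad553, to 0.80, without mad555, with adjusted permutation p between 0.0081 and 0.1351. It passed only without mad555 (r = 0.80, permutation test, adjusted p = 0.0081) or mad556 (r = 0.74, permutation test, adjusted p = 0.0464). It did not pass without mad562 (r = 0.72, permutation test, adjusted p = 0.0864). Of the relations with the 4 lists, 0 passed, and 1 did with centred arrays, Sycp1 with the macrophage list (r = -0.75, permutation test, adjusted p = 0.0296). That number stayed at 0 when each tumor was left out. With a mean quartile of 3.5 or more in place of the highest quartile in every tumor, 2 members counted as high, Rec114 and Nxf3, against 1. The 6 low members were 5 with limits from all probe sets. No paired analysis was possible because all arrays belong to a single group. The array medians are close, and differences among the 6 low members lie near the lowest signals, where arrays separate tumors poorly.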

Other observations

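Because Trp53inp1 led the genes most like Nxf3, 14 other target genes of p53 were looked up in the same tumors, a list drawn up after that value had been seen and therefore given with no test. Their median r with Nxf3 over the 17 tumors was 0.28, against 0.07 for all genes. Of the 14, 11 lay above 0, against 10716 of 18192 for all genes, so most genes did so as well. Cdkn1a, the cell cycle inhibitor, had the highest r, 0.72, and kept 0.69 without mad562. Without mad562 the median over the 14 genes was 0.10, against 0.09 for all genes. Bbc3, which promotes cell death, had 0.46 with all tumors and 0.76 without mad562, whereas Phlda3 had -0.04 and -0.52.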
